A study of Mus musculus with 5 samples.

Results

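The complement components and regulators described here are 9 genes chosen by symbol, with no measured value in the rule: C1qa, C1qb, C1qc, C1ra, C1s1, C3, C4b, Cfb and Serping1. All 9 were listed in each of the 5 libraries, among 41028 gene names in the series. The material was mammary tumour from PyMT mice, animals that carry the polyoma virus middle T antigen as an oncogene in the mammary epithelium and develop tumours there; the labels do not name the promoter that drives it. Tumours were digested to single cells and enriched for viable cells, and the RNA was counted as unique molecular identifiers (UMIs), which mark single captured molecules. Fresh tumour cells were run on the 10x Genomics 3' v2 droplet platform in 2 libraries (fresh 10x 1 and fresh 10x 2), and cells labelled as 24 h old in 1 library (stored 10x); the protocol text describes such cells as kept overnight in the cold after digestion, with lowered viability. Of the libraries made on the BD Rhapsody whole-transcriptome platform, which captures cells in microwells, 1 was labelled fresh (BD 1), and for the other (BD 2) the title says fresh while its files are named for 24 h, so it was kept apart. No label or protocol used here gives the strain, the age or the number of mice, or says whether the libraries came from separate mice, so p-values measure the spread between these libraries, and only the fresh 10x group had a replicate.

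Complement is a cascade of plasma and tissue proteins that tags targets for uptake or lysis. In the classical pathway the recognition molecule C1q, built from the products of C1qa, C1qb and C1qc, binds antibody or damaged surfaces and activates the proteases C1r and C1s (C1ra and C1s1 in the mouse), which cleave C4 (C4b) and C2. In the alternative pathway factor B (Cfb) joins C3b, the cleaved form of C3, to form the C3 convertase of that route, and both routes meet at C3. C1 inhibitor, the product of Serping1, blocks C1r and C1s. The liver supplies most of the circulating proteins, whereas macrophages are the known main source of C1q, and fibroblasts and epithelia also make several components locally.

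Levels are counts of a gene per 1000000 UMIs of its class (CPM) and are not scaled to gene length. Levels of different genes are not compared directly, and ratios of 2 genes are compared only between classes or libraries. After removal of called doublets, 2012, 1857, 3953, 3689 and 4077 cells were clustered in the order fresh 10x 1, fresh 10x 2, stored 10x, BD 1 and BD 2. This is the order of every set of 5 values below. Over all deposited cells the median was 8926.0 to 12474.0 UMIs per cell. Cells were grouped without using the members or 41 other complement genes, so the classes were set by other genes of the same cells. Macrophage-like cells (50, 106, 180, 227 and 226) summed to 6803.5 to 11175.2 CPM over 7 macrophage markers. This cluster was led by Cd74, H2-Aa and Lyz2 and also held cells with dendritic markers. At a finer clustering 92.0%, 60.4%, 59.4%, 76.2% and 69.0% of its cells stayed macrophage-like, so its make-up differed between the libraries. Fibroblast-like cells formed an Efemp1 and Clec3b type (31, 41, 232, 237 and 173 cells) and a Cilp and Thbs4 type (162, 79, 81, 97 and 56 cells). Epithelial-like cells held 78.3% to 86.8% of the UMIs. They are called tumour cells below, although no marker used here separates tumour from other mammary epithelium. A T/NK-like cluster served as the class that should lack most members; it was led by the plasma cell genes Igha and Igkc and then by Gzmb, Cd7 and Cd3g. Between 1 and 5 cell barcodes were shared by pairs of 10x libraries and 24 by the BD libraries.

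The 3 chains of C1q lie side by side on mouse chromosome 4 (GRCm38), C1qb at chr4:136880126-136886200, C1qc at chr4:136889801-136892936 and C1qa at chr4:136895916-136898844, whereas C1ra (chr6:124512621-124523440) and C1s1 (chr6:124530344-124542392) neighbour each other on chromosome 6. C4b (chr17:34728139-34743902), Cfb (chr17:34856374-34862514) and C3 (chr17:57203967-57228136) are on chromosome 17, and Serping1 is at chr2:84765360-84775444. RefSeq tables of build GRCm38.p6 held the bases before the start site for 5 of the 9 members. The 250 bases upstream are shown, 5′ to 3′ on the gene's strand, for those members in which a motif marked below was found. Searched on both strands, capitals mark the PU.1 box GAGGAA (also as its complement TTCCTC) or the C/EBP site TTGCNNAA (or its complement).
C1qb (chr4:136886201-136886450, minus strand): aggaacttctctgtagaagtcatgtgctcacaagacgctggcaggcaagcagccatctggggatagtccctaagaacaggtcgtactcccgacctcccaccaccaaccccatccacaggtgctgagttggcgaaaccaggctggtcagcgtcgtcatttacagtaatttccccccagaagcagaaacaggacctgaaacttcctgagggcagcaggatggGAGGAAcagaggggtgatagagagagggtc
C1qc (chr4:136892915-136893164, minus strand): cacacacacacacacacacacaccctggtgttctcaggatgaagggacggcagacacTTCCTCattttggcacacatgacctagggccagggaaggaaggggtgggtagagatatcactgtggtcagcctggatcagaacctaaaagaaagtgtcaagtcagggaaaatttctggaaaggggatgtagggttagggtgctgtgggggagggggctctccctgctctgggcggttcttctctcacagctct
C1s1 (chr6:124542360-124542609, minus strand): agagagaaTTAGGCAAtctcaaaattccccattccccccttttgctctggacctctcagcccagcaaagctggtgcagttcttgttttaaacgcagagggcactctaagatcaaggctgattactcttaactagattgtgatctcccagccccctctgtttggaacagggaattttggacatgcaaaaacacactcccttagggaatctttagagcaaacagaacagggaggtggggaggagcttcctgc
C3 (chr17:57228137-57228386, minus strand): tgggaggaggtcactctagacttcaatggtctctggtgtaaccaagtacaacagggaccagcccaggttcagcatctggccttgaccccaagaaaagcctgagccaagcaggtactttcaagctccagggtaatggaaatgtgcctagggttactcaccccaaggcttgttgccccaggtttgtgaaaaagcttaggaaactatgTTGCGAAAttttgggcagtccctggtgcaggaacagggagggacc
The PU.1 box, named for a transcription factor of myeloid cells, stood 30 to 25 bases before the start in C1qb and 193 to 188 bases before it, on the other strand, in C1qc, and 23.3% of 32851 promoters of this length hold it. The C/EBP site stood 45 to 38 bases before the start in C3 and 242 to 235 bases before it in C1s1, on the other strand, and 9.56% of promoters hold it. C1s1 has a second listed start site, whose window (chr6:124542322-124542571) does not hold that match. The windows of C1ra and of this second start held neither motif, and none of the 6 windows held the GAS site TTCNNNGAA, the ISRE (the interferon-stimulated response element) or the TATA box TATAAA, which 7.02%, 2.98% and 12.4% of promoters hold. C1qa, C4b, Cfb and Serping1 are named only.

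C1q transcripts were found in macrophage-like cells. C1qa, the A chain, stood at 7055.5, 4345.1, 4826.9, 2061.8 and 2106.0 CPM there. C1qb, the B chain, stood at 4356.9, 3003.7, 3078.9, 2601.7 and 2477.2, and C1qc, the C chain, at 2522.0, 1657.7, 2137.4, 3375.7 and 3174.2. The chains were thus found in every library, with C1qa lower and C1qc higher in both BD libraries than in the 3 10x libraries. The next class, the Cilp and Thbs4 type fibroblasts, had means of 19.3, 14.3 and 8.32 CPM for C1qa, C1qb and C1qc, so the mean in macrophage-like cells was 211.5, 216.9 and 309.4 times as high, with no overlap between libraries. Between 93.6% and 99.0% of the UMIs of a C1q chain in a library were in macrophage-like cells. Drawn to 2000 UMIs per cell, 81.5% of macrophage-like cells had a UMI of C1qa, 81.5% of C1qb and 79.7% of C1qc as a mean over libraries (81.7%, 81.9% and 80.3% without drawing). Levels and shares are over the whole cluster, including the cells that did not stay macrophage-like at the finer clustering. The same shares in T/NK-like cells were 0.902%, 1.08% and 0.814%, with median depths of 4541.5 to 11465.0 UMIs in macrophage-like and 2485.5 to 6167.5 in T/NK-like cells.

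Against epithelial-like cells, 3 of the 9 members were higher in macrophage-like cells by edgeR's quasi-likelihood test with Benjamini-Hochberg adjustment over all genes and the library as a block, where 26.7% of 12376 genes were higher and 36.6% lower. The 3 were C1qa (log2 fold change 11.26, SE 0.492, adjusted p 5.12e-11), C1qb (10.70, SE 0.502, adjusted p 1.15e-10) and C1qc (10.88, SE 0.430, adjusted p 1.64e-11). For the other 6 the adjusted p missed the threshold of 0.05: Serping1 was at 0.67 (adjusted p 0.0543), C4b at -0.64 (adjusted p 0.0529), Cfb at 0.79, C1ra at 0.50, C1s1 at 0.46 and C3 at -0.15. The median log2 fold change was 0.67 over the members and -0.16 over all genes tested. C4b passed as lower in macrophage-like cells with no filter on low counts (-0.86, adjusted p 0.00215), with a stricter filter on cells (-0.76), with classes from marker gates (-0.71) and without stored 10x (-1.01, adjusted p 0.00599). Serping1 passed as higher at a finer clustering (0.88, adjusted p 0.0115) and without fresh 10x 2 (0.68, adjusted p 0.0383).

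Levels of C1q outside macrophage-like cells were a small fraction of the macrophage level. In epithelial-like cells C1qa was at 0.0203% to 0.105% of its level in macrophage-like cells, C1qb at 0.0298% to 0.10% and C1qc at 0.0233% to 0.0870%. The summed macrophage markers, all 7 of them detected, were at 0.0738% to 0.161% there. Each chain was below these markers in every library. In the Cilp and Thbs4 type fibroblasts the chains were at 0.0425% to 1.11% and the macrophage markers at 0.202% to 0.804%. The ratio of C1qc to C1qa in macrophage-like cells was 0.357, 0.382 and 0.443 in the 10x libraries and 1.64 and 1.51 in the BD libraries. In epithelial-like cells the ratio of C1qc to C1qa was 0.412, 0.439 and 0.366 in the 10x libraries and 2.20 and 3.40 in the BD libraries, so it moved with the platform in both classes. Whether these low counts come from RNA outside the cells or from the cells themselves was not tested.

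**Figure D1:**
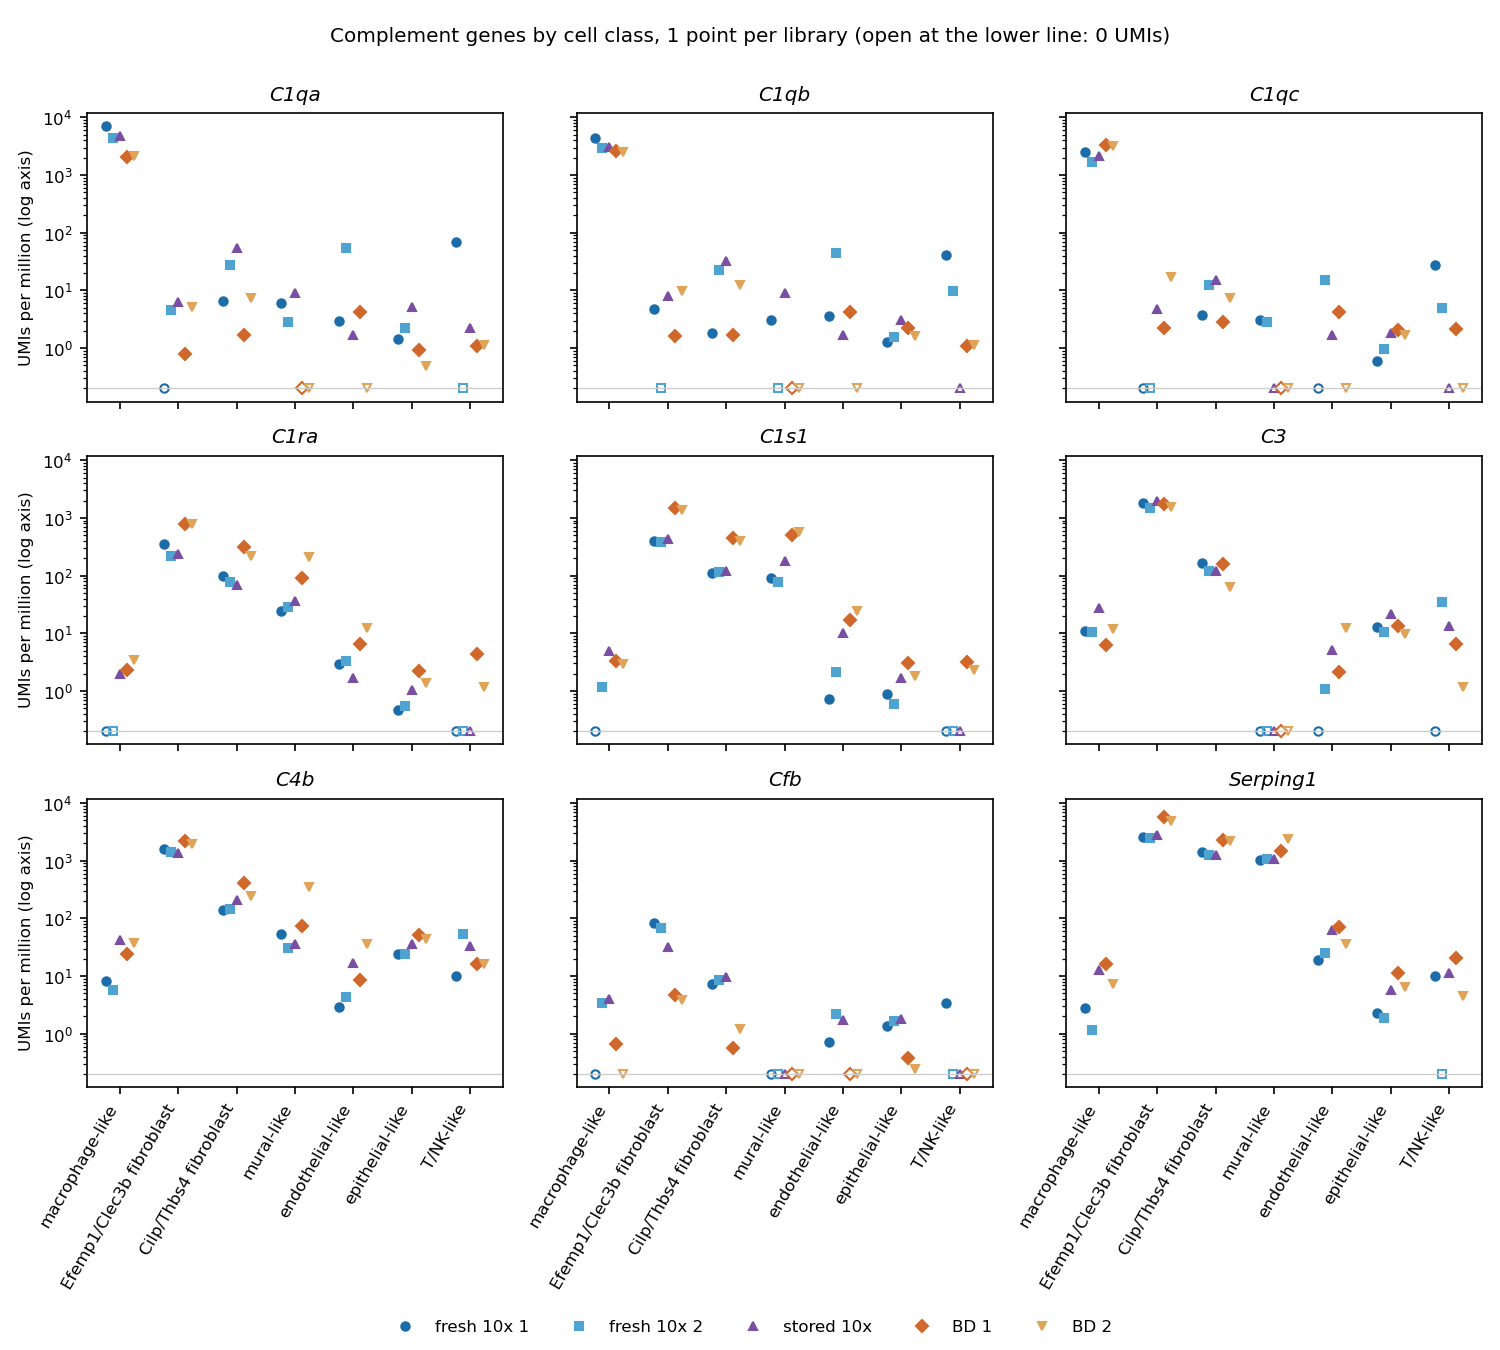
Level of each of the 9 members in CPM (log axis) by cell class, with 1 point per library and open symbols on the lower line for 0 UMIs. The C1q chains stand at 1657.7 or more in macrophage-like cells and at a mean of 19.3 or less in the next class, whereas the other 6 members have their highest mean in the Efemp1 and Clec3b type fibroblasts.

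The proteases of the C1 complex and their inhibitor were fibroblast transcripts. In the Efemp1 and Clec3b type C1ra stood at 351.7, 215.7, 232.7, 791.1 and 779.1 CPM, and C1s1 at 393.9, 379.1, 433.2, 1481.1 and 1353.6. Serping1, the C1 inhibitor, stood there at 2597.8, 2502.5, 2751.5, 5624.7 and 4918.1. For all 3 genes both BD libraries were above the 3 10x libraries. The Cilp and Thbs4 type had lower values in 5 of 5 libraries: 97.5, 76.0, 69.5, 310.8 and 217.9 for C1ra, 109.5, 116.7, 118.5, 454.4 and 401.4 for C1s1, and 1391.4, 1280.1, 1234.0, 2330.7 and 2185.5 for Serping1. The ranges of the 2 states over libraries did not overlap for Serping1 and overlapped for C1ra and C1s1. Mural-like cells, which surround vessels, also held the 3 transcripts, but numbered only 12 in BD 1 and 7 in BD 2, under the minimum of 20 used for tests. In the 3 10x libraries they stood at 24.3, 28.1 and 35.7 for C1ra, 91.1, 78.6 and 178.4 for C1s1, and 1019.9, 1069.7 and 1070.4 for Serping1. These values were below those of the Cilp and Thbs4 type, except for C1s1 in stored 10x. In the few mural-like cells of BD 1 and BD 2 C1ra was at 89.4 and 214.1 (6 UMIs each), C1s1 at 506.8 and 571.0, and Serping1 at 1460.9 and 2426.6, so C1s1 in both and Serping1 in BD 2 were above that type. Endothelial-like cells (13 in BD 2) stood below, at means of 5.28 for C1ra, 10.9 for C1s1 and 42.7 for Serping1, and epithelial-like cells at 1.12, 1.60 and 5.55. C1ra and C1s1 have the close paralogs C1rb and C1s2 beside them on chromosome 6, so reads may be split between the copies and their values are uncertain.

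Fibroblast-like cells of both states together were higher than epithelial-like cells for 9 of 9 members, against 33.8% of 12376 genes higher and 37.3% lower, with a median log2 fold change of 4.79 over the members and -0.06 over all genes. Serping1 differed by 9.25 (SE 0.259, adjusted p 2.44e-13), C1s1 by 8.43 (SE 0.278, adjusted p 1.28e-12) and C1ra by 8.24 (SE 0.211, adjusted p 1.25e-13). C3 differed by 6.21, C4b by 4.79 and Cfb by 3.85. The C1q chains were also called, at 2.33 for C1qa, 2.26 for C1qc and 2.07 for C1qb. With classes taken from marker gates instead of clusters the C1q chains were not called (1.03 for C1qa, adjusted p 0.0556; 0.24 for C1qc, 0.706; -0.26 for C1qb, 0.701), and summed macrophage markers in fibroblast-like cells were 18.9, 31.7, 36.5, 18.7 and 53.4 CPM.

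Set directly against each other, macrophage-like and fibroblast-like cells divided the 9 members completely. The 3 C1q chains were higher in macrophage-like cells, where 30.3% of genes were higher, with log2 fold changes of 8.93 for C1qa, 8.64 for C1qb and 8.61 for C1qc. The other 6 were lower in macrophage-like cells, where 32.0% of genes were lower: Serping1 at -8.58, C1s1 at -7.98, C1ra at -7.73, C3 at -6.36, C4b at -5.44 and Cfb at -3.06. The median was -5.44 over the members and 0.02 over all genes. In this comparison each of the 9 kept its direction and its side of the threshold in every alternative that gave it a tested value. The omission of each library in turn was among the alternatives.

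**Figure D2:**
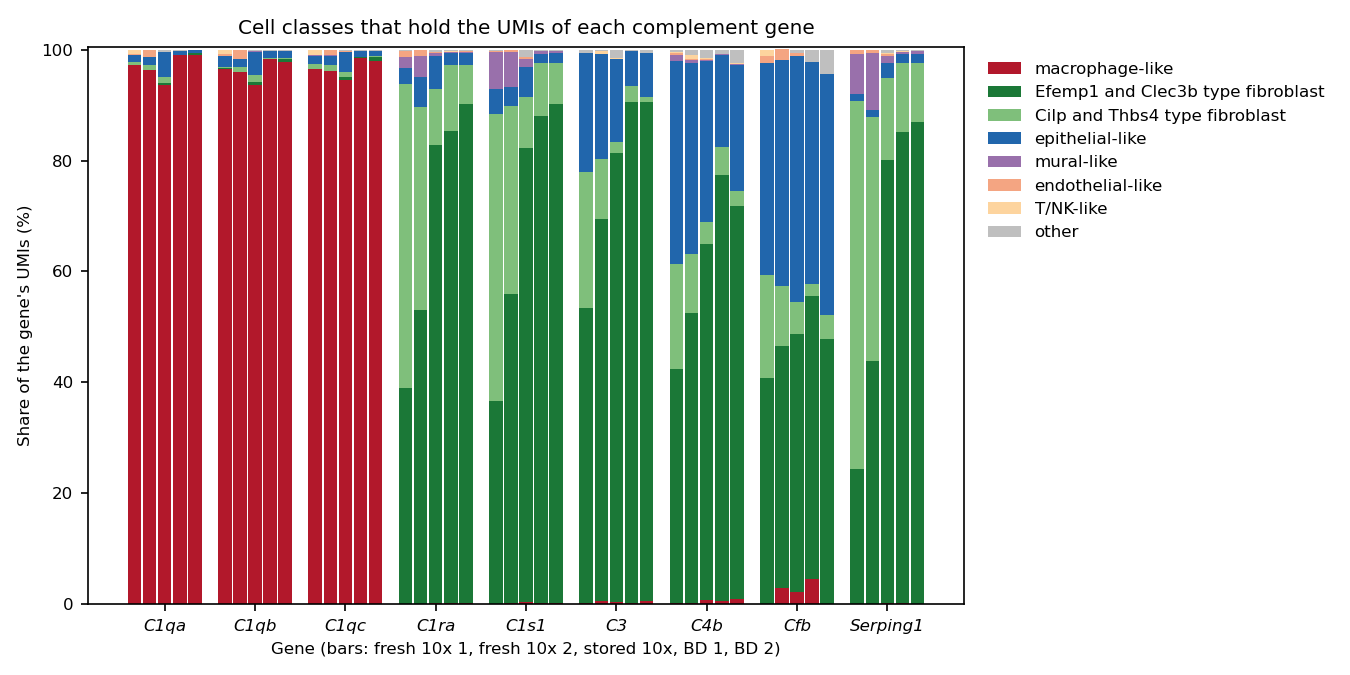
Share of each member's UMIs (percent) found in each cell class, with 5 bars per gene in the order fresh 10x 1, fresh 10x 2, stored 10x, BD 1 and BD 2. C1q chains are almost filled by macrophage-like cells, C1ra, C1s1 and Serping1 by fibroblast-like cells, and C3, C4b and Cfb also have an epithelial-like share.

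C3, at which the pathways meet, C4b of the classical arm and Cfb of the alternative arm were highest in the Efemp1 and Clec3b type fibroblasts. C3, the component shared by the pathways, stood there at 1817.1, 1494.7, 1958.3, 1766.0 and 1530.3 CPM (mean 1713.3, SD 196.8, n = 5). In the Cilp and Thbs4 type C3 stood at 165.0, 120.6, 119.4, 158.8 and 62.8, and the ranges were far apart. C3 was low in epithelial-like cells (13.1, 10.5, 21.3, 13.2 and 9.56) and in macrophage-like cells (11, 10.4, 27.6, 6.36 and 11.7), whose order differed between libraries. No UMI of C3 was found in mural-like cells of any library, where the upper 95% bound (exact Poisson, counting error only) ran from 10.4 to 131.6 CPM.

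C4b, the mouse C4 gene, followed the same order with more signal elsewhere. Its levels in the Efemp1 and Clec3b type were 1587.3, 1433.1, 1366.1, 2212.7 and 1914.6 CPM, and in the Cilp and Thbs4 type 140.0, 148.1, 212.1, 415.4 and 248.7, again without overlap. Epithelial-like cells held 24.6, 24.1, 36.6, 50.9 and 43.7 CPM of C4b, and macrophage-like cells 8.28, 5.75, 42.4, 24.1 and 37.1. The macrophage-like values in the fresh 10x libraries rested on 3 and 5 UMIs. The near-identical copy C4a was listed in the fresh 10x libraries only, with no UMI, so C4b is uncertain where reads fit both copies.

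Cfb, the protease of the alternative pathway, was scarce. The clustered cells of the 5 libraries held 86, 103, 187, 45 and 23 UMIs of it. In the Efemp1 and Clec3b type it stood at 82.1 (95% exact Poisson interval 57.2 to 114.1), 69.3 (50.6 to 92.8), 31.7 (25.4 to 39.1), 4.63 (2.93 to 6.94) and 3.80 (1.90 to 6.80) CPM. The 10x and BD intervals were far apart, and the level of Cfb in stored 10x was below both fresh 10x libraries. In the Cilp and Thbs4 type Cfb stood at 7.39, 8.62, 9.80, 0.565 and 1.23, and in epithelial-like cells at 1.38, 1.65, 1.80, 0.386 and 0.245. Fibroblast-like cells held 52.2% to 59.3% and epithelial-like cells 38.4% to 44.4% of the UMIs of Cfb. The gene lies beside C2 on chromosome 17, and the counting setting for strand is not given in the sources used here.

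The 2 fibroblast states differed in all 6 of the members that are fibroblast transcripts. Tested between the states with the library as a block, 6 of the 7 members that passed the filter on low counts were higher in the Efemp1 and Clec3b type, where 11.7% of 9366 genes were higher and 12.6% lower, with a median log2 fold change of 1.77 over the tested members and -0.01 over all genes. C3 differed most, at 3.80 (SE 0.147, adjusted p 2.25e-09, 13.9-fold), followed by C4b at 2.95 (SE 0.15, adjusted p 1.51e-08, 7.73-fold) and Cfb at 2.78 (SE 0.302, adjusted p 1.37e-05, 6.87-fold). C1s1 differed by 1.77 (3.41-fold, adjusted p 1.23e-08), C1ra by 1.64 (3.13-fold, adjusted p 1.18e-07) and Serping1 by 1.09 (2.13-fold, adjusted p 1.86e-07). The seventh, C1qb, was at -1.38 (adjusted p 0.0505) and passed as lower without fresh 10x 1 (-1.50, adjusted p 0.0353), with RLE size factors (0.0484), with no filter on low counts (0.000694) and with a stricter filter on cells (0.0461), and C1qa and C1qc did not pass the filter. Without the library as a block C1s1 (adjusted p 0.0694), C1ra (0.0645) and Cfb (0.135) missed the threshold.

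In each of the 5 libraries the states differed more in C3 and C4b than in the C1 proteases and the inhibitor, as a description of the values; the differences between genes were not tested. The level in the Cilp and Thbs4 type as a share of that in the Efemp1 and Clec3b type was 4.10% to 9.08% over libraries for C3, 8.82% to 18.8% for C4b and 9.0% to 32.4% for Cfb. It was 27.4% to 30.8% for C1s1, 27.7% to 39.3% for C1ra and 41.4% to 53.6% for Serping1. Cfb was therefore not apart from the proteases: it stood at 30.9% in stored 10x and at 32.4% in BD 2, and each BD value rested on 1 UMI in the Cilp and Thbs4 type. For scale, the summed Efemp1 and Clec3b genes, which define the first state, were at 3.02% to 9.96%, and the 6 general fibroblast markers at 88.6% to 138.4%. The low level of C3 in the Cilp and Thbs4 type was thus of the size of that of the genes that define the other state. Whether cells of the first state placed in the second add to its C3 was not tested.

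**Figure D3:**
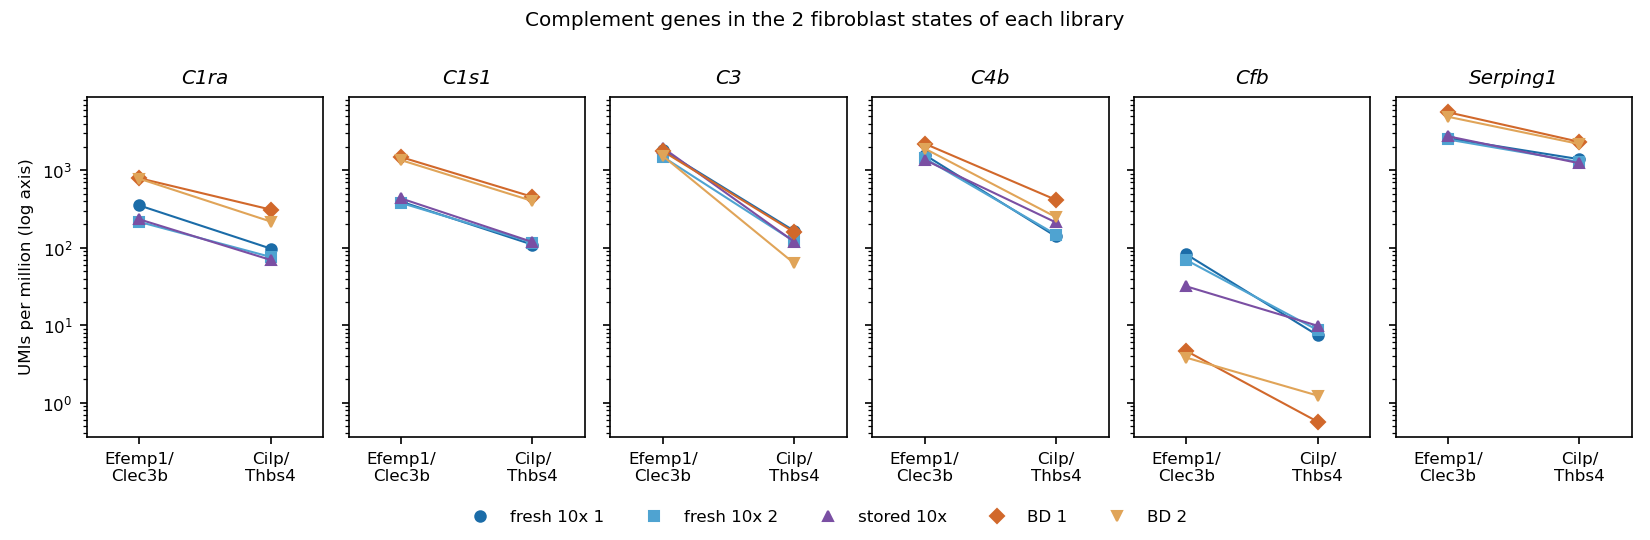
Level in CPM (log axis) of 6 members in the Efemp1 and Clec3b type and the Cilp and Thbs4 type fibroblasts, with a line joining the 2 states of each library. Every line falls towards the Cilp and Thbs4 type, most steeply for C3 (13.9-fold in the fit) and least for Serping1 (2.13-fold).

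Per cell the same order held at equal depth. Drawn to 2000 UMIs, 76.3% of Efemp1 and Clec3b type cells and 11.5% of Cilp and Thbs4 type cells had a UMI of C3, as means over libraries, and for C4b the shares were 82.4% and 23.4%. Serping1 was found in 96.4% and 86.5%, C1s1 in 67.7% and 32.9%, and C1ra in 52.9% and 24.7%. Serping1 was thus found in most cells of both states, and C3 in most cells of the first state alone. Cfb was found in 7.43% and 0.786% of the cells of the 2 states. The corresponding share in T/NK-like cells was 0.942% for C3, 2.10% for C4b, 1.81% for Serping1 and 0.206% for Cfb. In the Efemp1 and Clec3b type the share without drawing was 89.7% for C3, 93.6% for C4b and 33.5% for Cfb, at median depths of 11324.0 to 19586.0 UMIs.

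The libraries held the states in different proportions. The Efemp1 and Clec3b type was 1.54%, 2.21%, 5.87%, 6.42% and 4.24% of cells, and the Cilp and Thbs4 type 8.05%, 4.25%, 2.05%, 2.63% and 1.37%. Of the UMIs of C1ra, 39.0%, 53.0%, 82.5%, 85.2% and 89.9% came from the Efemp1 and Clec3b type. The fresh 10x libraries, with the fewest cells of that type, stood lowest.

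Tumour cells held little of each member, but the members did not stand at one common fraction of the fibroblast level. As a share of the level in the Efemp1 and Clec3b type, epithelial-like cells had 0.0755% to 0.209% for Serping1, 0.131% to 0.438% for C1ra and 0.136% to 0.390% for C1s1. The 6 fibroblast markers, all detected in every library, stood in the same range, at 0.136% to 0.290%. C3 was above, at 0.625% to 1.09%, as were C4b at 1.55% to 2.68% and Cfb at 1.68% to 8.34%. The ratio of C4b to Serping1 was 10.7, 12.8, 6.36, 4.48 and 6.81 in epithelial-like cells and 0.611, 0.573, 0.496, 0.393 and 0.389 in the Efemp1 and Clec3b type. C3 to Serping1 was 5.69, 5.56, 3.71, 1.16 and 1.49 in epithelial-like cells against 0.699, 0.597, 0.712, 0.314 and 0.311, so for both genes all 5 epithelial-like ratios were above all 5 of the fibroblasts. The ratio of C1s1 to Serping1 was 0.382, 0.312, 0.293, 0.266 and 0.286 in epithelial-like cells against 0.152, 0.151, 0.157, 0.263 and 0.275, higher in 5 of 5 libraries by a smaller factor, with 95% intervals of the counts apart in fresh 10x 1 and stored 10x.

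Because epithelial-like cells are the bulk of the libraries, these low levels add up. They held 36.6%, 34.4%, 29.0%, 16.6% and 22.8% of the UMIs of C4b and 21.5%, 18.9%, 14.9%, 6.35% and 7.93% of those of C3, while fibroblast-like cells held 61.2% to 82.1% of C4b and 77.7% to 93.2% of C3. At 2000 UMIs per cell, 4.57%, 5.03%, 7.69%, 8.74% and 8.22% of epithelial-like cells had a UMI of C4b, where T/NK-like cells had 1.25% to 2.63%. For C3 the shares were 2.29%, 1.79%, 4.30%, 2.96% and 2.25%, where T/NK-like cells had 0%, 0.936%, 1.96%, 1.69% and 0.126%. At this depth both genes were thus above the T/NK-like share in all 5 libraries. By summed level the order was not the same in every library: T/NK-like cells stood at 41.5%, 226.1%, 91.8%, 31.6% and 36.8% of the epithelial-like level for C4b and at 0%, 330.5%, 63.4%, 48.7% and 12.0% for C3, so in fresh 10x 2 they were higher for both, on 11 and 7 UMIs. Without drawing, 26.2% of epithelial-like cells had a UMI of C4b and 13.0% of C3, at median depths of 10762.0 to 13909.0. For Serping1 the mean share was 1.18% of epithelial-like and 1.81% of T/NK-like cells. The latter rested on 3, 0, 5, 19 and 4 UMIs. Whether Serping1 in epithelial-like cells is background was not tested. For Cfb the mean shares were 0.232% and 0.206%. UMIs of Cfb were found in T/NK-like cells of fresh 10x 1 only, but in epithelial-like cells of every library. The T/NK-like share is therefore too poorly measured to serve as a background for Cfb. Levels in macrophage-like cells, in turn, were 48.2% to 129.6% of the epithelial-like level for C3 and 23.9% to 115.8% for C4b, where epithelial markers, with 8 of 8 detected, stood at 8.16% to 18.8%.

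Within the tumour cells C4b and C3 were highest in different clusters. C4b reached a mean of 119.0 CPM over 4 libraries in a cluster led by Wif1, where fresh 10x 2 had 7.40 (3 UMIs from 37 cells), stored 10x had 111.1, BD 1 had 202.8 and BD 2 had 154.7, and it had a mean of 72.0 (31.1 to 130.7) in a cluster led by Scgb1b27. The lowest mean of C4b was 15.4, in a cycling cluster led by Ube2c. The Wif1 cluster was highest for C4b in stored 10x, BD 1 and BD 2, but in fresh 10x 1, where it had 9 cells and was not measured, the Scgb1b27 cluster was highest of the other 9, and in fresh 10x 2 a cluster with the milk genes Csn1s2a and Csn2. C3 was highest in a cluster with Ltf and Aldh1a3, at a mean of 32.3 (27.0 to 45.6), in 4 of 5 libraries, followed by the milk gene cluster at 25.3 (18.9 to 30.5), which led in fresh 10x 2. Clusters with Krt5 and Krt14, with Tspan1 and with cycling genes had C3 means of 5.53, 5.64 and 6.02. Serping1 moved little, with cluster means of 4.53 to 8.15. Cluster means as a share of the Efemp1 and Clec3b type were 0.179% to 0.349% for the fibroblast markers and 0.114% to 0.199% for Serping1, but 0.906% to 6.47% for C4b and 0.314% to 1.87% for C3. These differences between clusters are given as values with no test, since clusters of one library are not replicates.

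**Figure D4:**
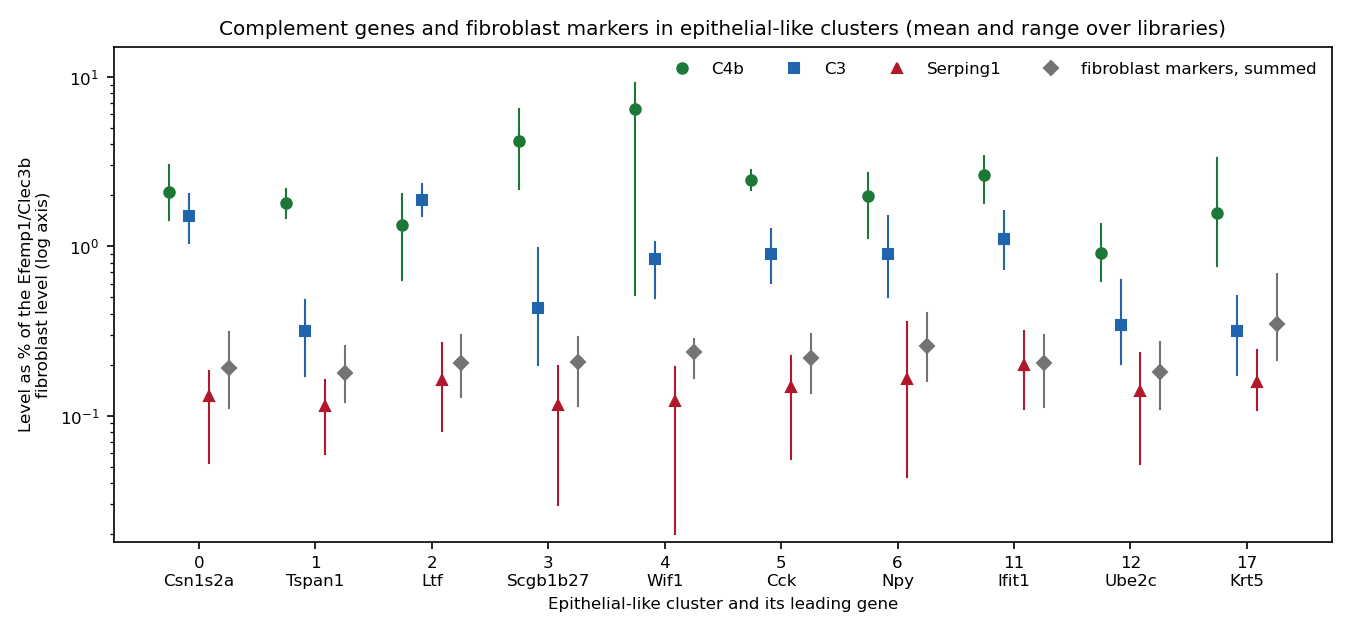
Level in 10 epithelial-like clusters as a percentage of the level in Efemp1 and Clec3b type fibroblasts (log axis) for C4b, C3, Serping1 and the summed fibroblast markers, with points at the mean and lines over the range of the libraries. A value of 0 is drawn at the axis floor. Cluster means of Serping1 (0.114% to 0.199%) stay below those of the fibroblast markers (0.179% to 0.349%), while C4b reaches 6.47% and C3 1.87%.

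Of the 41 other complement genes, 20 were tested in each comparison of classes, and the rest had too few UMIs. In fibroblast-like against epithelial-like cells 11 of the 20 were higher and 2 lower, where 33.8% and 37.3% of all genes were. In macrophage-like against epithelial-like cells 9 were higher and 4 lower, where 26.7% and 36.6% of all genes were. In macrophage-like against fibroblast-like cells 8 were higher and 11 lower, where 30.3% and 32.0% were. Between the fibroblast states 10 were tested. Of these 7 were higher in the Efemp1 and Clec3b type and 1 lower, where 11.7% and 12.6% of all genes were.

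Other genes of the initiating steps followed the stroma. C1rb and C1s2, the paralogs of C1ra and C1s1, had means of 132.2 and 133.0 CPM in the Efemp1 and Clec3b type and of 42.4 and 37.6 in the Cilp and Thbs4 type, with log2 differences of 1.65 and 1.81. C2, the partner of C4 in the classical convertase, was higher in fibroblast-like than in epithelial-like cells (5.68) but did not differ between the states by the test (104.2 and 88.2 CPM, log2 difference 0.28, adjusted p 0.190). Masp1, a protease of the lectin pathway, was at 90.2 and 50.1 (0.76, adjusted p 0.0162). C2, next to Cfb on the chromosome, thus did not follow its split between states. Cfp encodes properdin, the stabiliser of the alternative convertase. It was at a mean of 104.0 in macrophage-like cells (log2 fold change 5.94 over epithelial-like cells). Macrophage-like cells held 58.8% to 65.7% of the UMIs of Cfp, and epithelial-like cells 26.2% to 37.1%.

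Regulators and receptors were spread over the classes. Cd55, which speeds the decay of convertases, was at 271.7 in the Efemp1 and Clec3b type and 32.7 in the Cilp and Thbs4 type (log2 difference 3.08, adjusted p 2.02e-08), whereas Cd59a, an inhibitor of the terminal pore, was at 10.6 and 288.1 (-4.07, adjusted p 1.26e-07). These membrane regulators were thus split between the states in opposite directions. Most of their UMIs were in epithelial-like cells, at 61.8% to 88.7% for Cd55 and 64.7% to 93.5% for Cd59a. That class held 78.3% to 86.8% of all UMIs. Clu, the clusterin gene, was an epithelial transcript, at a mean of 284.4 in epithelial-like cells, and was lower in fibroblast-like (-3.22) and macrophage-like cells (-3.37). Vtn (vitronectin) was highest in mural-like cells, at a mean of 266.9 (193.8 to 365.7), and was at 27.9 in the Efemp1 and Clec3b type. Cr1l (Crry), a membrane regulator of C3, was found in all classes, with 63.4 in epithelial-like cells. The receptors for C3a and C5a were macrophage transcripts: C3ar1 had a mean of 273.2 (log2 fold change 10.79 over epithelial-like cells) and C5ar1 of 174.3 (9.69). So were the chains Itgam, at 183.6 (9.92), and Itgax, at 229.7 (9.95), of the C3 fragment receptors. Itgb2, another chain of these receptors, was at 215.9 in macrophage-like cells (9.59), which held the largest share of its UMIs in every library. It was not confined to them, since T/NK-like cells held 28%, 12.7%, 16.4%, 12.7% and 22.4% of the UMIs of Itgb2. C5ar2 stood at 20.7 in macrophage-like and 15.4 in epithelial-like cells (0.57, adjusted p 0.0525), and Cd93 at 32.7 in macrophage-like cells against 807.2 in endothelial-like cells.

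The patterns of the members were compared over 32 sums of a class in a library. As a description over points that share libraries and depth, Pearson's r of log2 levels was 0.947 to 0.963 among the C1q chains. It was 0.98 for C1ra and C1s1, 0.969 for C1s1 and Serping1, 0.959 for C1ra and Serping1, and 0.899 for C3 and C4b. C4b was nearly as close to C1ra (0.864) and C1s1 (0.839), so it was not apart from the proteases, and C3 was further from them (0.705 and 0.645). Between a C1q chain and any other member r was -0.322 to -0.038. Cfb was further from C3 (0.740) and C4b (0.650). Among 9304 other genes the pattern of C1qa was most like that of Cd300c2 (0.958) and Ms4a7 (0.958), that of C1qb like Ms4a7 (0.954) and Clec4n (0.941), and that of C1qc like Ms4a7 (0.967) and Ly86 (0.960). Ms4a7 was one of the markers that named the class. The nearest genes were Scn7a (0.969) and Serpina3n (0.967) for C1ra, Ddr2 (0.977) and Loxl2 (0.976) for C1s1, and Fbn1 (0.982) and Pla1a (0.98) for Serping1. For C3 they were Sfrp1 (0.925) and Tmeff2 (0.920), for C4b Lgi2 (0.937) and Tmeff2 (0.936), and for Cfb Wnt2 (0.797) and Reg1 (0.784), so that Tmeff2 was near both C3 and C4b.

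The study compared platforms, and the C1q chains did not move together between them. In macrophage-like cells BD 1 was tested against the 2 fresh 10x libraries. The fit had 1 residual degree of freedom and assumed that the single libraries vary like the fresh pair. It also drew on the spread of all genes tested. Small p-values of the platform and storage fits therefore do not rest on replicates of BD 1 or stored 10x. C1qa was lower in BD 1 (log2 fold change -1.74, SE 0.249, adjusted p 2.59e-10), as was C1qb (-0.78, SE 0.254, adjusted p 0.0155). C1qc was at 0.42 (adjusted p 0.254) and did not pass. Of the 6 members tested, 2 were lower, where 11.6% of 9217 genes were lower, and 2 were higher, where 9.99% were higher. The 2 higher ones, C4b (1.60, adjusted p 0.0290) and Serping1 (2.99, SE 1.05, adjusted p 0.0261), rested on few UMIs in the 2 fresh libraries, 3 and 5 for C4b and 1 and 1 for Serping1, and were at 1.16 and 1.90 without fresh 10x 2. DESeq2 gave no adjusted p for C4b or Serping1, and Serping1 missed the threshold at the finer clustering (adjusted p 0.105) and with BD 2 taken as fresh under a replicate block (0.0554). Markers of other cells in the macrophage-like class also differed between the libraries: summed mast cell markers were 11, 15, 205.1, 1019.9 and 1569.5 CPM, neutrophil markers 198.7, 223.2, 74.9, 36.8 and 32.7, T cell markers 278.7, 179.5, 25.6, 60 and 79.5, and the macrophage markers 8526.2, 6803.5, 8423.3, 11175.2 and 10389.8. Their part in the C1q values was not tested. The call of C1qb was lost with DESeq2 (adjusted p 0.266) and with no filter on low counts (0.197). The median was -0.18 over the tested members and 0.01 over all genes.

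**Figure D5:**
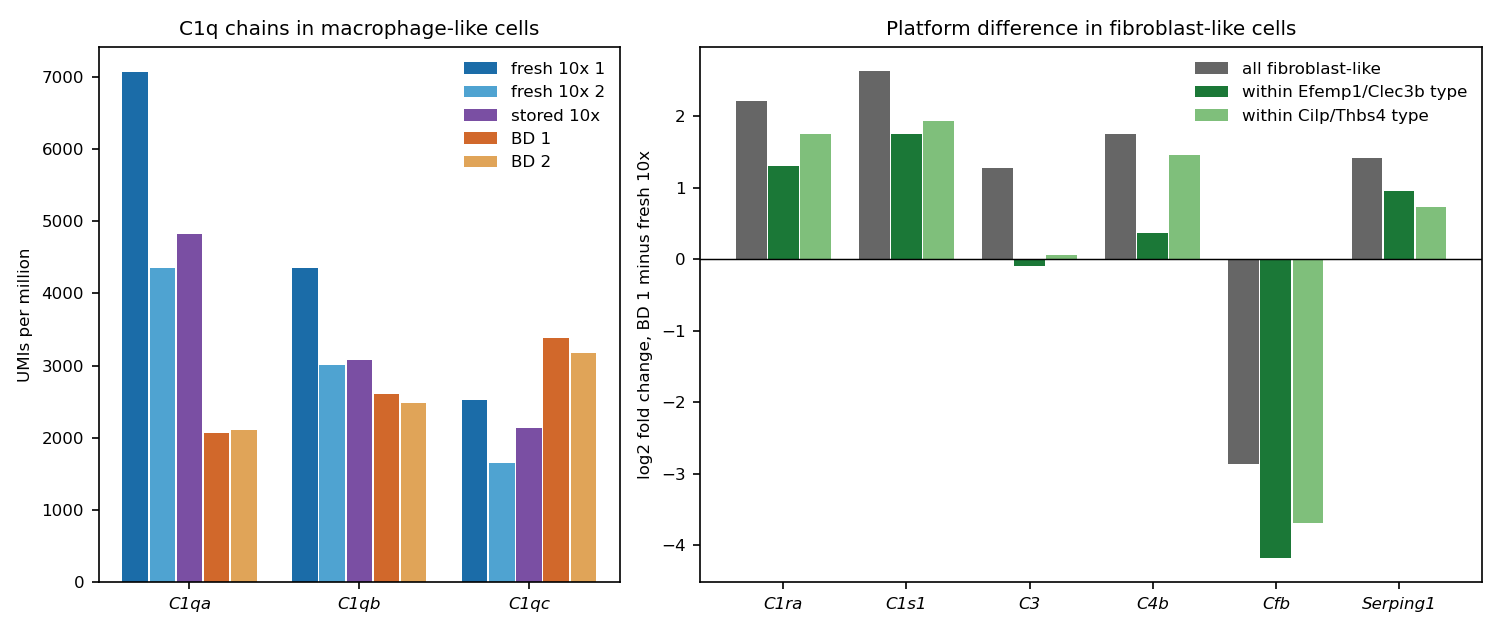
Left: CPM of C1qa, C1qb and C1qc in macrophage-like cells of each library (bars from 0). Right: log2 fold change of BD 1 against fresh 10x for 6 members in all fibroblast-like cells and within each fibroblast state. C1qa is lower and C1qc higher in both BD libraries than in the 10x libraries, and C3 goes from 1.28 in all fibroblast-like cells to -0.09 and 0.06 within the states.

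In fibroblast-like cells the C1 proteases and their inhibitor were higher on the BD platform and Cfb was lower. Over both states C1ra stood at 139.4 and 123.1 CPM in the fresh 10x libraries and at 665.0 and 656.1 in BD 1 and BD 2, and C1s1 at 156.3 and 205.2 against 1211.5 and 1144.9. Serping1 was at 1590.1 and 1692.1 against 4759.9 and 4319.1, and Cfb at 19.7 and 29.1 against 3.56 and 3.24. All 4 genes were thus outside the range of the fresh 10x pair on the BD side. In BD 1 against fresh 10x, 5 of 9 members were higher, where 19.5% of 11911 genes were, and 2 were lower, where 20.5% were, with a median of 1.28 over the members and 0.02 over all genes. C1s1 was at 2.63 (SE 0.185, adjusted p 6.30e-05), C1ra at 2.22 (SE 0.165, adjusted p 7.28e-05), Serping1 at 1.42 (SE 0.130, adjusted p 0.000156), C4b at 1.75 (adjusted p 0.000598) and C3 at 1.28 (adjusted p 0.00105). Cfb was at -2.86 (SE 0.340, adjusted p 0.000438) and C1qa at -3.59 (adjusted p 0.00797), the latter at -2.07 without fresh 10x 2 and not called with RLE size factors (adjusted p 0.0506).

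The share of each state differed between these libraries, so each state was also fitted alone, an alternative chosen after seeing the data. Within the Efemp1 and Clec3b type C1s1 (1.76), C1ra (1.31), Serping1 (0.96) and Cfb (-4.18) were still called. C4b (0.37, adjusted p 0.247), C3 (-0.09, adjusted p 0.834) and C1qa (-1.86, adjusted p 0.609) were not. Within the Cilp and Thbs4 type C1s1 (1.94), C1ra (1.75), C4b (1.46), Serping1 (0.73) and Cfb (-3.69) were called and C3 (0.06, adjusted p 0.818) was not. The value of C3 over both states thus did not hold within either state. In the Efemp1 and Clec3b type the ratio of C1ra to its paralog C1rb was 1.95, 1.41 and 1.41 in the 10x libraries and 9.45 and 9.89 in the BD libraries, and that of C1s1 to C1s2 was 2.95, 3.28 and 3.66 against 10.0 and 9.06. The paralogs therefore took unlike shares on the 2 platforms. Platform, tumour and the authors' counting for each platform cannot be told apart here.

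In epithelial-like cells 4 of 9 members were higher in BD 1 than in fresh 10x, where 21.6% of 15070 genes were, and 1 was lower, where 21.4% were. Serping1 was at 2.28 (SE 0.241, adjusted p 0.000386), C1ra at 1.96 (adjusted p 0.0119), C1s1 at 1.89 (adjusted p 0.00952) and C4b at 0.91 (SE 0.112, adjusted p 0.000706), and Cfb was at -2.12 (adjusted p 0.0132). C3 was at 0.01 (adjusted p 0.972). The median was 0.91 over the members and 0.02 over all genes. The 5 called members thus moved in the direction they had in fibroblast-like cells, and the summed fibroblast markers in epithelial-like cells were 86.4, 70.6, 131.3, 138.2 and 112.8 CPM; their part in the result was not tested. With DESeq2 C1ra (adjusted p 0.128), C1s1 (0.0772) and Cfb (0.0570) were not called. Among the other complement genes, BD 1 was higher for 7 of 13 tested in macrophage-like cells, where 9.99% of all genes were. In fibroblast-like cells BD 1 was higher for 8 of 16 and lower for 1, where 19.5% and 20.5% of all genes were. In epithelial-like cells BD 1 was higher for 5 of 21, near the share of 21.6% over all genes.

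Cold storage was compared on the 10x platform alone, with 1 stored library. Storage, tumour and library preparation cannot be told apart in this comparison. In macrophage-like cells the C1q chains did not pass: the log2 fold changes against fresh 10x were -0.25 for C1qa (adjusted p 0.902), -0.27 for C1qb (0.905) and 0.02 for C1qc (0.997). C4b alone of the 6 tested members was called higher (2.67, SE 0.574, adjusted p 0.000597; 2.19 without fresh 10x 2, and no adjusted p from DESeq2), where 0.998% of genes were higher and 0.488% lower. Its level was 42.4 CPM in stored 10x (43 UMIs, 95% exact Poisson interval 30.7 to 57.1) against 8.28 (3 UMIs, 1.71 to 24.2) and 5.75 (5 UMIs, 1.87 to 13.4), and the stored value lay above both. Beside it, summed fibroblast markers in macrophage-like cells were 283.9 CPM in stored 10x against 102.1 and 81.7, and epithelial markers were 911.9 against 554.6 and 1260.9; their part in the result was not tested. The median was 0.70 over the tested members and -0.01 over all genes, and 1 of 13 other complement genes was higher.

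In fibroblast-like cells 3 of 9 members were higher in stored 10x, where 4.19% of genes were higher and 3.11% lower, with a median of 0.74 over the members and 0.00 over all genes. C3 stood at 1424.3 CPM against 437.0 and 583.8 in the fresh libraries (log2 fold change 1.48, SE 0.183, adjusted p 0.00362). C4b stood at 1030.9 against 378.3 and 581.2 (1.10, adjusted p 0.0246), and C1s1 at 341.8 against 156.3 and 205.2 (0.92, adjusted p 0.0255). All 3 stored values were above both fresh values, but none of the 3 was called within a state. Within the Efemp1 and Clec3b type C3 was at 0.23 (adjusted p 0.903), C4b at -0.16 (0.963) and C1s1 at 0.15 (0.966), and within the Cilp and Thbs4 type at -0.28 (0.522), 0.56 (0.0695) and 0.07 (0.862). The calls of C1s1 (adjusted p 0.124), C4b (0.140) and C3 (0.0767) were also lost with RLE size factors, and that of C1s1 with DESeq2 (0.0817). Cfb, in contrast, was called lower within the Efemp1 and Clec3b type alone (-1.25, adjusted p 0.0119), with 31.7 CPM against 82.1 and 69.3.

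In epithelial-like cells 1 of 9 members, Serping1, was called higher in stored 10x (1.47, SE 0.248, adjusted p 0.0484), where 0.949% of genes were higher and 0.246% lower. Beside it, summed fibroblast markers in epithelial-like cells were 131.3 CPM in stored 10x against 86.4 and 70.6, and Efemp1 and Clec3b together were 4.76 against 0.420 and 1.22; their part in the result was not tested. The call of Serping1 was lost with DESeq2 (adjusted p 0.145), at the finer clustering (0.0523) with classes from marker gates (0.314) and with BD 2 taken as fresh (0.0729). C3 was at 0.87 (adjusted p 0.0719; 0.0497 with RLE size factors) and C4b at 0.60 (adjusted p 0.0626; 0.0407 with BD 2 taken as fresh), and both passed with no filter on low counts (0.000845 and 0.00462). The median was 1.14 over the members and 0.00 over all genes.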

How the data were processed

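Single-cell RNA was counted in 5 libraries of digested mouse mammary tumour. The deposited matrices hold whole UMI counts per gene and cell; per the submitters' processing notes Cell Ranger 3.0.1 and build mm10 were used, and which tool counted the BD libraries is not given in the sources used here. Library totals were 29166129, 30027178, 53381382, 59957945 and 49966022 UMIs in the order used in the results. Intervals cover counting error only.

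A doublet caller marked 21, 7, 2, 0 and 1 of the 2033, 1864, 3955, 3689 and 4078 cells with at least 200 genes; these were removed, and doublets may remain. The other cells were scaled to 10000 counts and clustered in scanpy 1.11.5 (Python 3.11.15) on 2000 variable genes without 50 complement genes, with 30 principal components, 15 neighbours and Leiden resolution 1.0. Clusters were named from marker lists; 2 clusters stayed unnamed, 1 high in mitochondrial RNA and 1 of 78 cells led by Meg3, Igfbp2 and Mgp. Counts were summed per library and class (at least 20 cells) and tested with edgeR 4.0.16 in R 4.3.3 (TMM, filterByExpr, quasi-likelihood, adjusted p under 0.05); contrasts of classes had the library as a block, since their sums come from the same cells. SEs are the absolute log2 fold change divided by the root of F. DESeq2 1.42.0, other size factors, filters, clustering, marker gates, omission of each library and BD 2 by its title were alternatives. Scripts were tested on simulated data. Shares at 2000 UMIs per cell are the expected shares under drawing without replacement; shallower cells were left out.

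All 9 members are named, other complement genes with at least 20 CPM in a class (not all are reported here), and, of the 5 genes nearest in pattern to each member, the first 2. Members and lists were chosen with earlier results of these data known. Promoters and coordinates are from RefSeq.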

Additional observations from a re-analysis of the deposited data

How the results depend on the processing

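Class comparisons depended least on the settings. All 107 member values under alternatives for macrophage-like against fibroblast-like cells kept direction and call. For macrophage-like against epithelial-like cells 6 of them became calls and the rest kept theirs, and for fibroblast-like against epithelial-like cells 104 did and 2 lost the call, while C1qb reversed with marker gates (-0.26). Between the fibroblast states the count of genes was 2277 with the library block and 937 with no replicate block; leaving out 1 library gave 1675 to 2165. Platform counts moved more: BD 1 against fresh 10x in macrophage-like cells gave 1990 genes, 308 with DESeq2 and 3235 with BD 2 taken as fresh by its title. In fibroblast-like cells it gave 4771, 1536 with DESeq2 and 2422 within the Efemp1 and Clec3b type, where C3 reversed (-0.09), and in epithelial-like cells 6477 and 4024 with DESeq2. Stored against fresh 10x in macrophage-like cells gave 137, 15 with DESeq2 and 44 with BD 2 by title. In fibroblast-like cells it gave 870, 82 with RLE size factors, 1725 with no filter, 249 with DESeq2, 218 within the Efemp1 and Clec3b type, where C4b (-0.16) and Cfb (-1.25) reversed, and 414 within the Cilp and Thbs4 type, where C3 reversed (-0.28). In epithelial-like cells it gave 180, 284 with RLE, 805 with no filter, 1 with marker gates and 314 with BD 2 by title. The cause was not tested. Without 1 fresh library the platform and storage fits give values with no test. Few UMIs limit Cfb in the BD libraries and C4b and Serping1 in macrophage-like cells.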
